A study of Mus musculus with 10 samples.

Results

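The MHC class I presentation genes examined here were H2-K1, H2-D1, H2-T23, B2m, Tap1, Tap2, Tapbp, Nlrc5, Psmb8 and Psmb9. They were taken by name, and each matched 1 row of the count table, which gave 10 genes of 55421. RNA sequencing had been performed on 2 myeloid cell types from mice bearing MC17-51 fibrosarcomas, collected on day 15 after tumor implantation. Myeloid-derived suppressor cells (MDSC) were isolated from the spleen with magnetic beads, and tumor-associated macrophages (TAM) were sorted from the tumor as live CD45+CD11b+F4/80+Ly6G- cells. Control Shp2f/f mice were floxed at Ptpn11, the gene of the phosphatase SHP-2, and lacked Cre. Shp2f/fLysMcre mice carried the same floxed gene and Cre recombinase driven by the Lyz2 (lysozyme M) promoter, which is active in macrophages, neutrophils and part of the monocytes and not in T cells. The 4 groups were MDSC Shp2f/f (n = 2), MDSC Shp2f/fLysMcre (n = 2), TAM Shp2f/f (n = 3) and TAM Shp2f/fLysMcre (n = 3). Both cell types came from the same mice, the labels do not tie libraries to mice or give their age, and whether a library pooled mice is not given in the sources used here, so n counts libraries and p-values measure the spread between them.

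Nearly every nucleated cell shows peptides of its own proteins on MHC class I molecules, where CD8+ T cells read them. Proteasomes cut proteins into peptides, and interferon induces the catalytic subunits Psmb8, Psmb9 and Psmb10, which replace Psmb5, Psmb6 and Psmb7 in the immunoproteasome. The transporter built from Tap1 and Tap2 carries peptides into the endoplasmic reticulum, where tapasin (Tapbp) bridges it to class I heavy chains paired with β2-microglobulin (B2m). H2-K1 and H2-D1 encode the classical heavy chains, H2-T23 encodes the nonclassical Qa-1 chain, which is recognized by receptors of natural killer cells, and Nlrc5 is a transactivator of class I genes.

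In GRCm38, 8 of the 10 genes lie on chromosome 17. Tapbp (33915899 to 33929292), H2-K1 (33996017 to 34000347), Psmb9 (34181987 to 34187764), Tap1 (34187553 to 34197225), Psmb8 (34197721 to 34201454), Tap2 (34203527 to 34216321), H2-D1 (35262730 to 35267499) and H2-T23 (36029773 to 36032855) follow each other in that order. B2m lies on chromosome 2 (122147686 to 122153083) and Nlrc5 on chromosome 8 (94434356 to 94527272). Tap1 and Psmb9 are transcribed head to head, and their exons overlap by 212 bases on opposite strands, so reads there could be told apart only if strand was used in counting, which is not stated. Exons of Tapbp overlap those of Zbtb22 by 149 bases (4.11%) on the same strand, where strand does not tell reads apart. Reads of 42 bases were also short for the heavy chains: 36.9% of the 42-base stretches of the H2-T23 transcript, 19.4% of those of H2-D1 and 13.8% of those of H2-K1 occur in other transcripts, chiefly of other H2 genes, against 0 for B2m, Nlrc5, Psmb8 and Psmb9. Heavy-chain values are uncertain for this reason, because the treatment of reads with several matches is not stated either. These shares do not measure how uncertain the counts are, since reads came in pairs and a mate may match a single gene.

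Promoter windows from 250 bases before to 50 bases after the start were read from RefSeq on GRCm38.p6 for 8 of the 10 genes. Only the first listed start of a gene was used (32851 windows were listed for 27025 genes). A motif without a match is thus absent from that window alone. The windows of Tapbp, Psmb8 and H2-D1 lay inside the annotated gene. Tap2 and Nlrc5 had no entry. The motifs searched on both strands were GAANNGAAA (interferon-stimulated response element core), a longer form of it with 1 more A after GAA, added after the windows were seen, TTCNNNGAA (gamma-activated site) and GGGNNTTCC (NF-kB site). TGACG, the core of the cAMP response element, was searched as well. The last motif was CCAAT, the CCAAT box. None of these matches overlapped another in the windows shown. The sequences of the genes with the largest TAM differences are shown 5′ to 3′ on the gene's strand, with matches in capitals (H2-K1 minus strand, chr17:34000298-34000597; H2-D1 plus strand, chr17:35262844-35263143; B2m plus strand, chr2:122147437-122147736; H2-T23 minus strand, chr17:36032652-36032951), followed by the window of Tap1 (plus strand, chr17:34187306-34187605), which shares 275 bases with that of Psmb9.
H2-K1: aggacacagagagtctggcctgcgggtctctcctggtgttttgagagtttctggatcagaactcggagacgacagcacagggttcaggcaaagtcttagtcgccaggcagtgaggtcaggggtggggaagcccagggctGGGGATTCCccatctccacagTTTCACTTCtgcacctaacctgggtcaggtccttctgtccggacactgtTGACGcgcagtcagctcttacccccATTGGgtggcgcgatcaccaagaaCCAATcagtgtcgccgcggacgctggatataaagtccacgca
H2-D1: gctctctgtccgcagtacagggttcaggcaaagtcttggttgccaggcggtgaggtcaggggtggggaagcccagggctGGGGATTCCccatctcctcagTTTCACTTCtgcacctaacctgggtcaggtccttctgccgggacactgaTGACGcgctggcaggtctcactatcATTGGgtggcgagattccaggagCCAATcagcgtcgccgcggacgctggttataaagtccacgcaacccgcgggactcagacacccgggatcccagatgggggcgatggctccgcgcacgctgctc
B2m: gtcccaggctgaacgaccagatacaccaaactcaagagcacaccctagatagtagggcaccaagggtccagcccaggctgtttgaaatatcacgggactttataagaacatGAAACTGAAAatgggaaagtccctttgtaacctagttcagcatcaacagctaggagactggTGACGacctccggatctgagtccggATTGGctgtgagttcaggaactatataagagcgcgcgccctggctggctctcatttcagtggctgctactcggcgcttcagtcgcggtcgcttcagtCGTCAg
H2-T23: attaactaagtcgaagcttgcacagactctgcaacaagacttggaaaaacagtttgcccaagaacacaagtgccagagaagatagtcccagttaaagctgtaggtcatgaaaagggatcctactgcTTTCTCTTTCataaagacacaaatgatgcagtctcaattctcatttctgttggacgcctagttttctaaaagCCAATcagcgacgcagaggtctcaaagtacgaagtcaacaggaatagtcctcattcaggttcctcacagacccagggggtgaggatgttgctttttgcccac
Tap1: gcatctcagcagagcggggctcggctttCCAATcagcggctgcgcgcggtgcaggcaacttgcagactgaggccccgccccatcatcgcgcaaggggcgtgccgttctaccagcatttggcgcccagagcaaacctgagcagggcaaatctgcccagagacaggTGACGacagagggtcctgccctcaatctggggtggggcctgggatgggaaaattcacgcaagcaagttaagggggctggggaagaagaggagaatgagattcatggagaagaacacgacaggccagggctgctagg

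The H2-K1 and H2-D1 windows carried the same 4 elements in the same order and at the same distances. The first bases of the NF-kB match and the interferon element, seen as TTTCACTTC from the opposite strand, were 21 bases apart, and those of the interferon element and the cAMP element 49 bases. The cAMP element and a CCAAT box on the opposite strand were 25 bases apart. Each of the windows also held a CCAAT box on the gene's own strand. B2m held the latter pair at the same distance of 25 bases, no NF-kB match, and the long form of the interferon element (GAAACTGAAA) upstream of them. H2-T23 held the long form on the opposite strand (TTTCTCTTTC) and a CCAAT box. Over all 27025 genes with a window, 7.56% held the interferon element core, 3.49% its long form, 5.72% the NF-kB site, 8.47% the gamma-activated site, 21.0% the cAMP element core and 37.9% the CCAAT box. Among the 8 genes, the core was in 2 (H2-K1 and H2-D1), the long form in 2 (B2m and H2-T23), the NF-kB site in 2 (H2-K1 and H2-D1), the gamma-activated site in 1 (Psmb8), the cAMP element core in 5 and the CCAAT box in 7. The cAMP and CCAAT matches of Tap1 and Psmb9 are the same sites in their shared bases, counted once for each gene. These are matches of letters and show no binding.

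The libraries held 28844660 to 38222998 counts. The genotype labels were checked with the targeted gene: in TAM, Ptpn11 was at 119, 122 and 119 CPM in Shp2f/f and at 48.8, 51.6 and 51.9 CPM in Shp2f/fLysMcre. In MDSC it was at 119 and 104 against 99.9 and 82.7 CPM, which was not called (log2 fold change -0.29, SE 0.14, Benjamini-Hochberg (BH) adjusted p = 0.361 in edgeR's quasi-likelihood test). Lyz2, whose locus holds the Cre, was at 45.6 and 48.9 CPM in Shp2f/fLysMcre MDSC and at 9.04 to 12.1 CPM in Shp2f/fLysMcre TAM, against at least 3394 CPM in every Shp2f/f library. The Ptpn11 deletion, the presence of Cre and the near loss of Lyz2 RNA came together, so no genotype comparison given here separates them. CPM is the count scaled to library size, here with TMM factors (trimmed mean of M-values) fitted within a cell type. The study's methods describe the MDSC as Ly6G+ granulocytic cells. As CPM of the total count, Ly6g was at 9.20 to 12.3 in Shp2f/f MDSC and 32.5 to 34.1 in Shp2f/fLysMcre MDSC. In Shp2f/f MDSC, the neutrophil gene S100a8 was at 3376 to 3507 and the macrophage receptor Csf1r at 1470.0 to 1487. Of other macrophage genes, C1qa was at 25.7 to 37.0 there against 1232 to 1285 in Shp2f/f TAM, and Cd68 at 376.0 to 398.7 against 1093 to 1107. In Shp2f/f MDSC, the 12 neutrophil markers listed summed to 10020 to 10360 CPM and the 10 monocyte and macrophage markers to 5281 to 5370. Xist, looked up because it separates the genotypes, was at 0.0298 to 0.0301 CPM in Shp2f/f MDSC, 130.2 to 136 in Shp2f/fLysMcre MDSC, 4.84 to 18.5 in Shp2f/f TAM and 191.5 to 350.4 in Shp2f/fLysMcre TAM. The sex of the mice and the genotype therefore cannot be told apart in any genotype comparison given here. The study's methods report as many male as female mice in every experiment, and the labels do not give the sex behind a library. The 2 Shp2f/fLysMcre MDSC libraries differed from each other more than any other replicate pair.

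The first comparison asked how strongly each gene was expressed. Levels were set side by side as CPM per kilobase of exon, with all 10 libraries on 1 TMM scale. B2m stood first in every library, at 1592 and 1707 CPM per kilobase in Shp2f/f MDSC and at 2829.5, 3078 and 2912 in Shp2f/f TAM. H2-D1 followed at 796 and 854 in Shp2f/f MDSC and at 1086, 1145 and 1086 in Shp2f/f TAM. H2-K1 came after them in all 4 groups, at 321 and 353 in Shp2f/f MDSC and at 760.0, 799 and 762 in Shp2f/f TAM. These 3 genes, which encode the surface molecule itself, lay above the other 7 in every library.

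Of the transport and loading genes among the 10, Tapbp stood highest, at 98.9 and 106 CPM per kilobase in Shp2f/f MDSC and 104, 109 and 105 in Shp2f/f TAM. H2-T23 came next among the 10 genes, at 80.8 and 90.0 in Shp2f/f MDSC and 73.6, 76.3 and 74.9 in Shp2f/f TAM, far below the classical chains. Psmb8 was sixth in all groups, with means of 69.3 ± 6.74 (SD, n = 2) in Shp2f/f MDSC and 59.1 ± 1.44 (SD, n = 3) in Shp2f/f TAM. Tap1 and Tap2 lay close together: they overlapped in both MDSC groups (37.1 to 37.5 and 34.7 to 38.9 in Shp2f/f) and not in TAM (37.9 to 39.3 and 32.003 to 34.2 in Shp2f/f). Psmb9 was ninth, with 26.3 and 27.8 in Shp2f/f MDSC. Nlrc5, the transactivator, was the lowest gene in all 10 libraries, at 10.8 to 11.96 in MDSC and 14.3 to 17.7 in TAM. Tapbp and H2-T23 overlapped in Shp2f/fLysMcre MDSC, and no other neighbors in the order overlapped in any group. The order rests on exon length: with the longest transcript in its place, 2 to 4 of the 10 genes in a group changed rank.

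**Figure D1:**
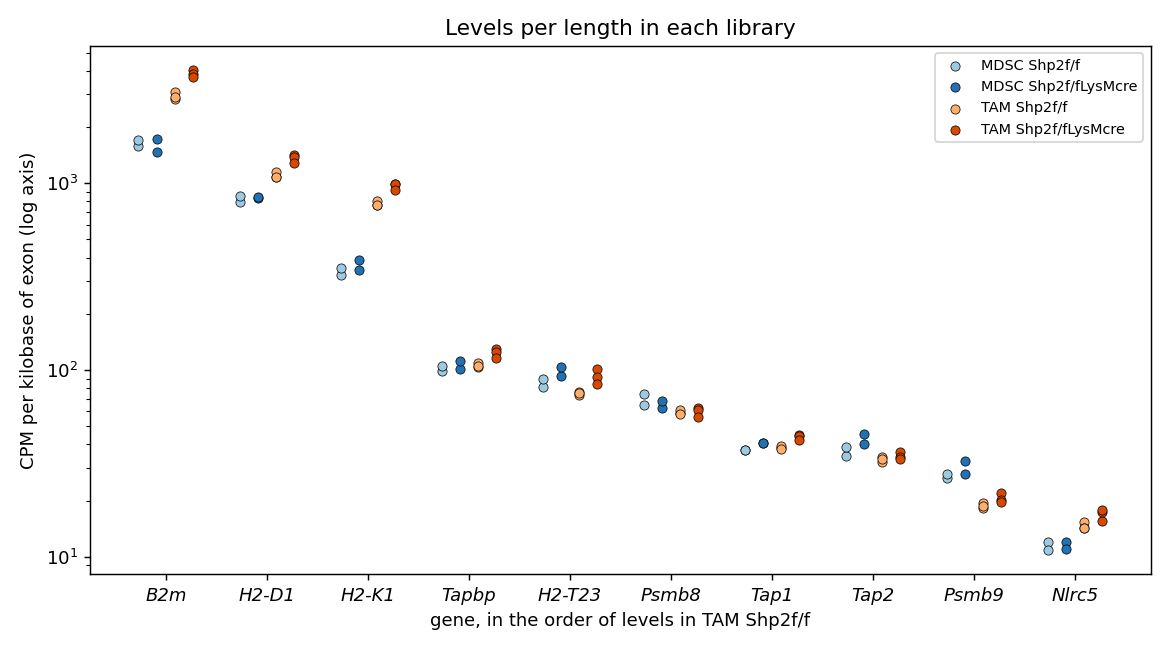
Level of each gene per library, as CPM per kilobase of exon on a log axis, with 1 point per library and the 4 groups in colors. B2m, H2-D1 and H2-K1 lie above 300 in every library and the other 7 genes below 130.

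The question put to the next comparison was whether class I presentation genes differ between Shp2f/f TAM and Shp2f/fLysMcre TAM. Ptpn11 RNA was lower in the latter and still present. In TAM, 7 of the 10 genes were higher in Shp2f/fLysMcre and none was lower (BH-adjusted p under 0.05 in edgeR's quasi-likelihood test). The rises ran from 11.2% for Tap1 to 28.5% for B2m. They took in every gene of the surface molecule, tapasin, Tap1 and Nlrc5. The immunoproteasome subunits Psmb8 and Psmb9 and the transporter subunit Tap2 did not pass. These counts stand against a comparison in which much of the transcriptome differed: 50.2% of the 14446 tested genes were called, 23.9% as higher and 26.3% as lower. The genotypes did not overlap, with Shp2f/fLysMcre higher, for 7 of the 10 genes and for 27.7% of all tested genes. These were not the same 7: Nlrc5 was called and overlapped, while Psmb9 was not called and did not overlap. For Psmb9, the lowest Shp2f/fLysMcre library was at 69.31 CPM and the highest control at 69.26 CPM. The counts of further lists in TAM, given after the class I genes, are read against the same shares. Over the 10 genes the median was 0.18 on the log2 scale, against -0.01 over all tested genes. In bulk RNA, a change in the share of cells of a type and a change in RNA per cell cannot be told apart.

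B2m, the light chain shared by all class I molecules, was at 2398, 2579 and 2472 CPM in Shp2f/f TAM and at 3329, 3161 and 3082 CPM in Shp2f/fLysMcre TAM. The groups did not overlap, and the lowest Shp2f/fLysMcre library stood clear of the highest control. The difference amounted to 0.36 on the log2 scale (SE 0.036, edgeR adjusted p = 1.02e-05). H2-K1 was at 2200.4, 2286 and 2211 CPM against 2804, 2772 and 2606 CPM, again without overlap. H2-K1 differed by 0.29 (SE 0.033, edgeR adjusted p = 3.05e-05). For H2-D1, the values were 2759, 2877 and 2764 CPM against 3500.4, 3409.5 and 3207 CPM. Both classical chains thus separated the genotypes completely, and H2-D1 differed by 0.27 (SE 0.035, edgeR adjusted p = 7.20e-05). H2-T23 had 209.6, 215 and 214 CPM against 279, 252 and 235 CPM, a difference of 0.26 (SE 0.056, edgeR adjusted p = 0.00228) with the wider spread on the Shp2f/fLysMcre side.

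Among the genes of peptide transport and loading, the transporter subunits parted. Tap1 was at 205, 209 and 205 CPM in Shp2f/f TAM and at 235, 232 and 222 CPM in Shp2f/fLysMcre TAM, without overlap (log2 fold change 0.15, SE 0.038, edgeR adjusted p = 0.00574). Tap2 was at 119, 126 and 125 CPM against 132, 123 and 122 CPM, and the groups overlapped. Its difference was 0.02, with a 95% interval from -0.072 to 0.12 (edgeR adjusted p = 0.678). Tapbp, the bridge between the transporter and the heavy chain, was at 370.3, 385 and 374 CPM against 448, 433 and 406 CPM. It rose by 0.19 on the log2 scale (SE 0.044, edgeR adjusted p = 0.00399).

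Nlrc5 was the weakest of the 7 calls. Its libraries held 128, 118 and 119.8 CPM in Shp2f/f TAM and 126, 141 and 145 CPM in Shp2f/fLysMcre TAM, so that replicate 1 of the latter lay below the highest control. The log2 fold change was 0.17 (SE 0.055, edgeR adjusted p = 0.0243), and the call was lost when any 1 of 4 libraries was left out (replicates 2 and 3 of either genotype, log2 fold change 0.13 to 0.17, edgeR adjusted p 0.0688 to 0.0974) and in 1 fit of all libraries (0.21, edgeR adjusted p = 0.0517).

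The immunoproteasome subunits showed a different picture. Psmb8, which takes the place of Psmb5, was at 195, 199.9 and 193 CPM in Shp2f/f TAM and at 202, 197 and 183 CPM in Shp2f/fLysMcre TAM, with a difference of -0.02 (95% interval -0.11 to 0.081, edgeR adjusted p = 0.786). Psmb9, which takes the place of Psmb6, was at 65.7, 69.3 and 67.2 CPM against 77.1, 70.0 and 69.3 CPM. Replicates 2 and 3 of Shp2f/fLysMcre lay close to the highest control, and the difference of 0.10 did not pass (SE 0.048, edgeR adjusted p = 0.114). Psmb10 had a difference of 0.04 (SE 0.055, edgeR adjusted p = 0.536).

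**Figure D2:**
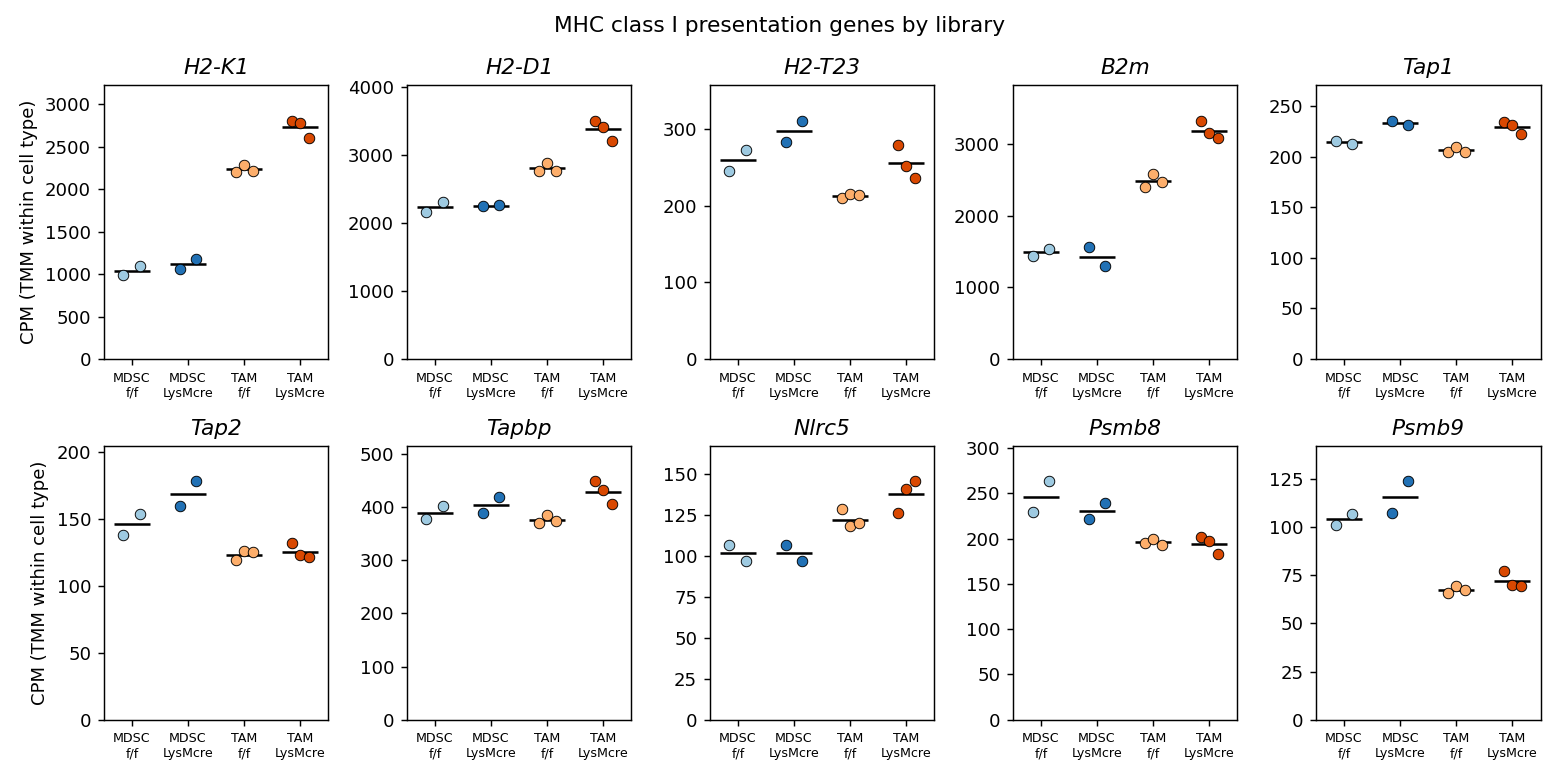
Each panel shows 1 gene as CPM after TMM scaling within its cell type, with 1 point per library, a bar at the group mean and a vertical axis that starts at 0. In TAM, the Shp2f/fLysMcre points of B2m (3082 to 3329 CPM) lie above those of Shp2f/f (2398 to 2579 CPM), while the groups of Psmb8 and Tap2 overlap.

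Of the constitutive counterparts, Psmb5 and Psmb7 were called lower. Psmb5 fell from 64.8, 67.2 and 62.9 CPM in Shp2f/f TAM to 59.1, 53.3 and 50.6 CPM in Shp2f/fLysMcre TAM (log2 fold change -0.26, SE 0.056, edgeR adjusted p = 0.00279). It shares 57.5% of its 42-base stretches with other transcripts, mostly its pseudogenes. Psmb7 fell from 150.0, 156 and 153 to 138, 128 and 118 CPM (-0.25, SE 0.053, edgeR adjusted p = 0.00207), with little such sharing. However, 405 bases (11.8%) of its exons overlap those of Nek6 on the opposite strand. Psmb6 differed by -0.02 (SE 0.044, edgeR adjusted p = 0.689). The subunits of the proteasome activator that interferon induces, Psme1 (0.07, SE 0.057, edgeR adjusted p = 0.307) and Psme2 (-0.10, SE 0.039, edgeR adjusted p = 0.0529), did not pass.

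Ratios of 2 genes within a library do not depend on how libraries are scaled. In Shp2f/f TAM there were 3.02, 2.97 and 3.07 counts of Psmb8 per count of Psmb5, and in Shp2f/fLysMcre TAM 3.42, 3.70 and 3.61. Psmb10 to Psmb7 gave 0.629, 0.597 and 0.631 against 0.740, 0.794 and 0.745. Inducible over constitutive was thus higher in every Shp2f/fLysMcre library for these pairs, by 0.24 and 0.30 on the log2 scale. Psmb9 to Psmb6 overlapped, at 0.404, 0.449 and 0.413 against 0.468, 0.448 and 0.460. B2m to H2-K1 was higher in every Shp2f/fLysMcre library (1.09, 1.13 and 1.12 against 1.19, 1.14 and 1.18) and Tap2 to Tap1 was lower in every one (0.581, 0.602 and 0.611 against 0.564, 0.531 and 0.547). The log2 ratio of H2-D1 to H2-K1 was 0.327 ± 0.00498 against 0.306 ± 0.0122 (SD, n = 3 each), a difference of -0.02 without overlap. With 3 libraries against 3, a two-sided exact permutation test cannot go below p = 0.1, and the 5 ratios without overlap each reached it (BH-adjusted p = 0.12 over 6 ratios), so none passed 0.05.

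**Figure D3:**
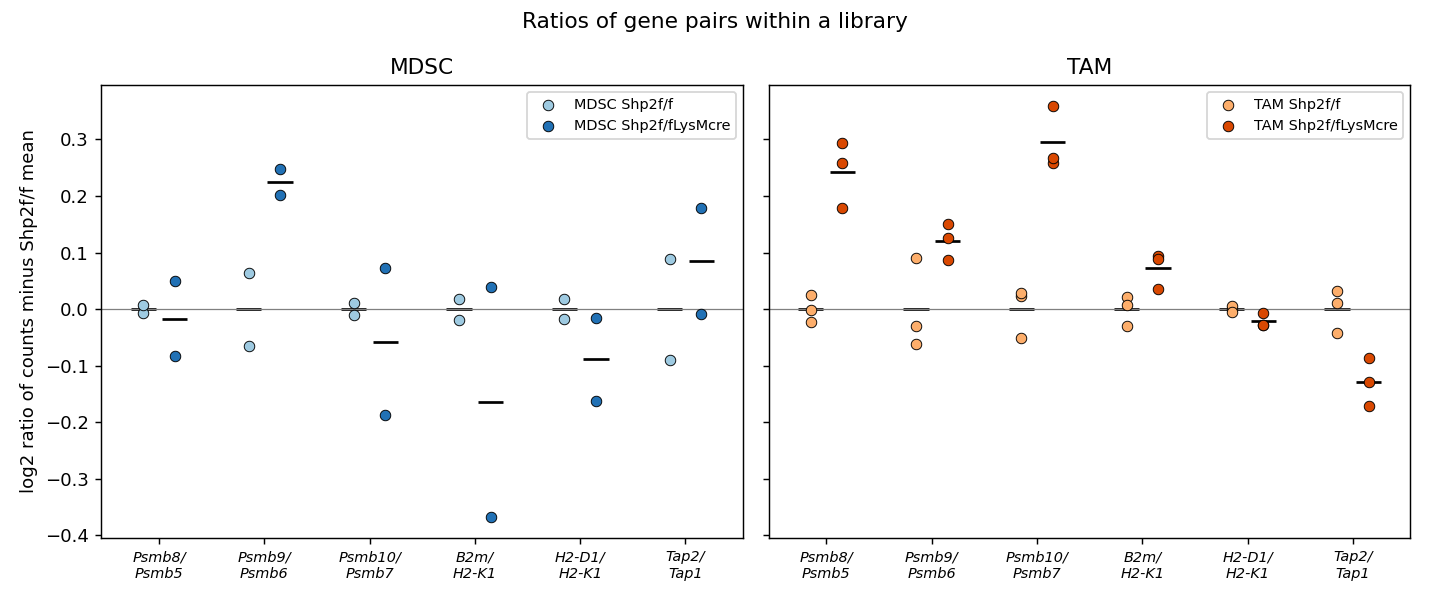
Points give, for each library, the log2 ratio of the counts of 2 genes minus the mean of the Shp2f/f libraries of the same cell type, with a bar at the group mean. In TAM, Psmb8/Psmb5 and Psmb10/Psmb7 lie above all controls (means 0.24 and 0.30) and Tap2/Tap1 below them (mean -0.13), while most MDSC pairs overlap.

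The TAM calls were affected by scaling. With libraries scaled by total counts, the median of all genes moved from -0.01 to -0.11, and 2342 genes were called higher and 5227 lower, against 3452 and 3805 with TMM. On that scale B2m (0.26), H2-K1 (0.19), H2-D1 (0.17) and H2-T23 (0.16) were still called higher, while Tap1 (0.06), Tapbp (0.09) and Nlrc5 (0.07) were not called and Psmb8 was called lower (-0.11, edgeR adjusted p = 0.0301). Relative to the shifted median, B2m was 0.37, Tapbp 0.20, Tap1 0.17 and Psmb8 -0.0038. Psmb5 and Psmb7, at -0.25 and -0.24 on that footing, kept their direction.

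Other transcripts moved with these rises. Of 10 monocyte and macrophage markers, 9 were called higher in Shp2f/fLysMcre TAM and 1 lower (Ccr2), and their summed level was 16570 to 18170 CPM of the total count against 11330 to 11740 in Shp2f/f TAM, with none at 0. All 15 proliferation genes were called lower (summed 891.6 to 948.4 against 1613 to 1634 CPM). Of 15 T and NK cell markers, 12 were lower and 1, Cd4, was higher; their sum was 42.9 to 44.5 CPM in Shp2f/f and 58.1 to 61.5 in Shp2f/fLysMcre. Pancreatic islet and acinar genes, foreign to a tumor sort, summed to 855.5 to 6696 CPM in Shp2f/f TAM and 18.7 to 87.4 CPM in Shp2f/fLysMcre TAM, with 5 of 6 tested genes lower, 1 higher, and Pnlip and Cpa1 at 0 in the latter group. Neutrophil markers, 5 of 9 of them called higher, summed to 306.6 to 319.9 against 442.4 to 468.3 CPM. Erythroid genes summed to 399.4 to 436.1 against 173.1 to 185.4 CPM, although 3 of 6 tested were called higher and 1 lower. B and plasma cell genes, 3 of 5 tested called higher, summed to 15.3 to 16.2 against 28.1 to 31.3 CPM. Fibroblast and tumor genes, 3 of 11 called lower and 1 higher, summed to 1204 to 1239 against 1090 to 1175 CPM. Their part in the class I differences was not tested.

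The same question was put to MDSC. None of the 10 genes was called there by edgeR's quasi-likelihood test, 0 had an unadjusted p under 0.05, and DESeq2 called 0, against 4.28% of 14806 genes called in that comparison. Log2 fold changes ran from -0.10 (Psmb8) to 0.21 (Tap2), with standard errors of 0.11 to 0.14, against 0.033 to 0.056 in TAM. Of the 7 genes called in TAM, 6 had a TAM value inside their 95% interval in MDSC: for H2-K1 it ran from -0.21 to 0.42, for H2-D1 from -0.28 to 0.31 and for H2-T23 from -0.11 to 0.51. B2m, with an interval from -0.41 to 0.29, was the exception. The median over the 10 genes was 0.08, against -0.01 over all genes.

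In MDSC, B2m was at 1438 and 1541 CPM in Shp2f/f and at 1559 and 1305 CPM in Shp2f/fLysMcre, where the replicates fell on either side of the controls. H2-D1 was at 2155 and 2312 against 2253 and 2257 CPM, so the Shp2f/fLysMcre values lay between the controls. H2-K1 overlapped as well, at 990.0 and 1089 against 1059 and 1175 CPM. H2-T23 (245 and 273 against 283 and 310.5 CPM), Tap1 (216 and 213 against 236 and 231 CPM), Tap2 (138 and 154 against 159.6 and 178 CPM) and Psmb9 (101 and 107 against 108 and 124 CPM) did not overlap and were higher in Shp2f/fLysMcre. That is 4 of 10 genes, and 24.6% of all tested genes also stood higher without overlap in this comparison of 2 libraries with 2. Nlrc5 was nearly the same in both genotypes, at 107 and 96.6 against 107 and 96.9 CPM. Tapbp (377 and 402 against 388 and 418 CPM) and Psmb8 (229 and 263 against 222 and 239 CPM) overlapped.

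**Figure D4:**
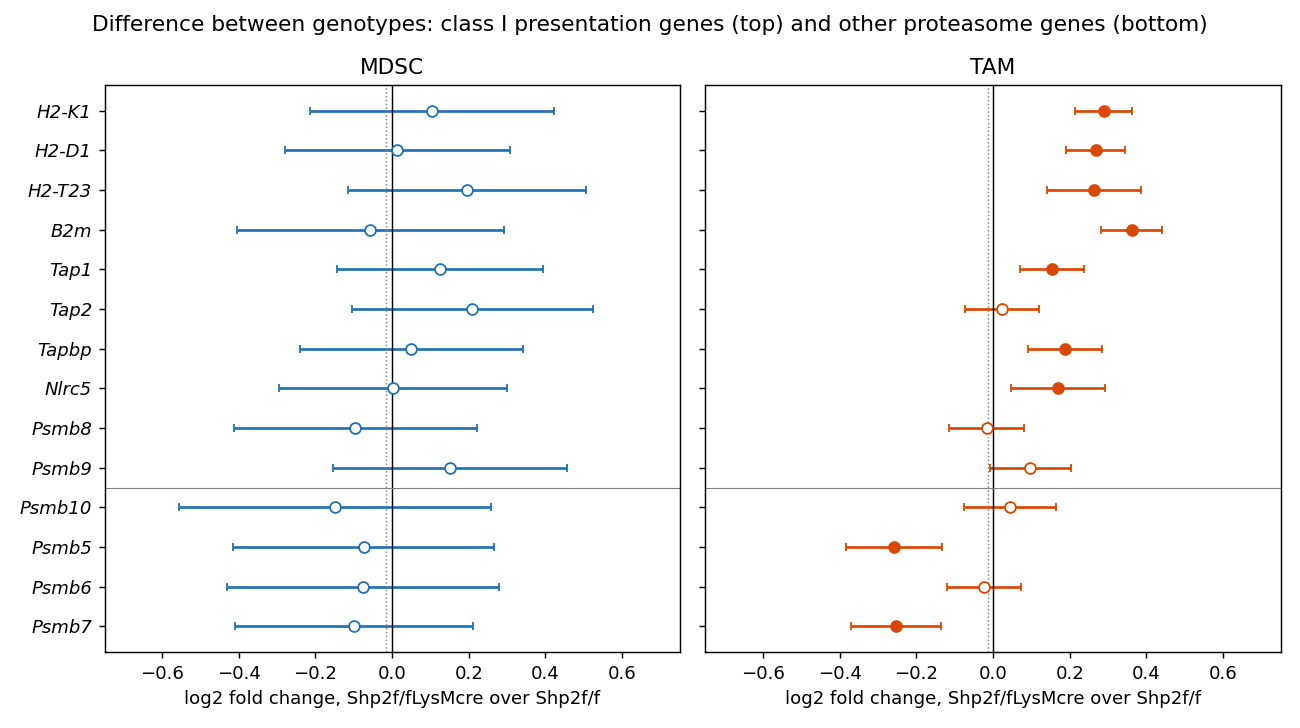
Log2 fold change of Shp2f/fLysMcre over Shp2f/f with bars of the 95% interval (t quantile at the degrees of freedom of edgeR's test), in MDSC and in TAM; filled points were called and the dotted line is the median of all genes. No gene is filled in MDSC, and in TAM 7 of the 10 class I presentation genes are filled to the right of 0 and Psmb5 and Psmb7 to the left.

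In the MDSC comparison 8 of 12 neutrophil markers were called higher in Shp2f/fLysMcre (summed 28300 to 32210 CPM of the total count against 10020 to 10360), with 12 of 15 proliferation genes (2201 to 2367 against 1114 to 1163 CPM). Of 11 erythroid genes, 8 were higher and 1 lower (843.8 to 990.6 against 438.8 to 457.3 CPM), and none of these genes was at 0 in either group. Of 10 monocyte and macrophage markers 1 was called lower, and their sum was 4027 to 4218 against 5281 to 5370 CPM. Of 8 tested pancreatic islet and acinar genes, 3 were lower (22.3 to 34.5 against 51.5 to 72.8 CPM, with Gcg at 0 in both groups). B and plasma cell genes, 2 of 9 called lower, summed to 3232 to 3984 against 2633 to 3452 CPM. T and NK cell markers, 1 of 14 called higher, summed to 43.2 to 54.4 against 33.3 to 35.0 CPM. None of 9 tested fibroblast and tumor genes was called (median log2 fold change 4.44, 1669 to 1717 against 1437 to 1654 CPM). Without either Shp2f/f replicate, 0 neutrophil, 0 proliferation and 0 erythroid genes were called, as 1 gene was called in all. Their part in the class I values was not tested. No ratio could pass in MDSC, since the smallest two-sided exact permutation p for 2 libraries against 2 is 0.3333. Psmb9 to Psmb6 did not overlap (0.955 and 0.873 against 1.08 and 1.05), and the other 5 did.

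Whether the genotype effect differed between the cell types was tested as an interaction over all 10 libraries. The effect was larger in TAM than in MDSC for B2m, by 0.45 on the log2 scale (SE 0.12, edgeR adjusted p = 0.0194), and for H2-D1, by 0.28 (SE 0.092, edgeR adjusted p = 0.0499). The fit shared a common spread per gene over both cell types, although the MDSC libraries varied more. Each of these SE was below that in MDSC alone (0.14 for B2m and 0.12 for H2-D1), so these p-values may be too small. For the other 8 genes the difference did not pass, and it ran from -0.16 for Tap2 to 0.21 for H2-K1. In this test 24.9% of 16581 genes were called, 12.2% as larger in TAM and 12.7% as smaller, so 2 of 10 is near the share over all genes. B2m was not called when any 1 of 5 libraries was left out (either MDSC Shp2f/f replicate, TAM Shp2f/f replicate 1 or 3, or TAM Shp2f/fLysMcre replicate 2; edgeR adjusted p 0.0504 to 0.108), and H2-D1 when any 1 of 7 was (those of either Shp2f/f group, or TAM Shp2f/fLysMcre replicate 1 or 2; edgeR adjusted p 0.0683 to 0.179). With total counts, which moved the median of all genes to -0.18, H2-D1 was at 0.11 (edgeR adjusted p = 0.363) and B2m at 0.28 and still called. All genes then split into 1234 larger and 3132 smaller calls, against 2030 and 2102.

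Between the cell types, H2-K1, B2m and H2-D1 were called higher in TAM and Psmb9 lower in both genotypes, while Psmb8 was called lower in Shp2f/f alone. In Shp2f/f mice, 4 genes were higher in TAM than in MDSC and 4 were lower. This comparison called 78.8% of 15659 genes (40% higher, 38.8% lower), so these counts were near the shares over all genes. H2-K1 was 2.29-fold higher in TAM (1.20 on the log2 scale, SE 0.052, edgeR adjusted p = 2.46e-08). B2m was 1.78-fold higher (0.83, SE 0.051), H2-D1 1.34-fold (0.42, SE 0.046) and Nlrc5 1.28-fold (0.36, SE 0.059), with edgeR adjusted p of at most 0.000373. Psmb9 was lower in TAM by 0.53 on the log2 scale (SE 0.047, edgeR adjusted p = 4.21e-06), with levels of 18.2, 19.4 and 18.6 CPM per kilobase against 26.3 and 27.8 in MDSC. Psmb8 (-0.23, SE 0.059), H2-T23 (-0.19, SE 0.053) and Tap2 (-0.15, SE 0.056) were also lower, with edgeR adjusted p of 0.00524, 0.00838 and 0.0338. The Tap2 call was lost without MDSC Shp2f/f replicate 2 (-0.07) or TAM Shp2f/f replicate 1 (-0.12) or 3 (-0.15), with no filter (-0.13) and in 1 fit of all libraries (-0.15), and that of H2-T23 in the latter (-0.19, edgeR adjusted p = 0.0728). Tapbp (0.05, SE 0.048) and Tap1 (0.04, SE 0.043) did not pass. Outside the 10 genes, the inducible Psmb10 (-0.54) and the constitutive Psmb5 (-0.33) were also called lower in TAM. The constitutive Psmb6 (0.58) and Psmb7 (0.48) were called higher.

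In Shp2f/fLysMcre mice, whose libraries were not used in the comparison above, H2-K1 (1.42, SE 0.090), B2m (1.29, SE 0.10), H2-D1 (0.71, SE 0.077) and Nlrc5 (0.57, SE 0.096) were again higher in TAM, with edgeR adjusted p of at most 0.00340. Psmb9 (-0.55, SE 0.094, edgeR adjusted p = 0.00355) and Tap2 (-0.29, SE 0.085, edgeR adjusted p = 0.0247) were again lower. The Tap2 call was lost when any of the 3 TAM libraries was left out (-0.31 to -0.25). With the replicate number as a block, Nlrc5 (0.52), Psmb9 (-0.52) and Tap2 (-0.28) were not called. Here 63.5% of 15741 genes were called (29.8% higher, 33.7% lower); with total counts the split was 3696 higher and 6561 lower, against 4689 and 5301, and the median of all genes moved from -0.05 to -0.26. Psmb8 (-0.11, SE 0.080), H2-T23 (-0.08, SE 0.097), Tap1 (0.11, SE 0.066) and Tapbp (0.22, SE 0.081, edgeR adjusted p = 0.0542) did not pass. Tissue, isolation method and cell type cannot be told apart in these comparisons. B and plasma cell genes summed to 2633 to 3984 CPM of the total count in MDSC and 15.3 to 31.3 CPM in TAM, with none of the 9 at 0, and their part in the class I levels was not tested.

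The makeup of the heavy-chain counts also differed between the cell types. Of the counts of H2-K1, H2-D1 and H2-T23 together, H2-K1 made up 29.2% to 31.4% in the 4 MDSC libraries and 42.5% to 43.1% in the 6 TAM libraries. H2-T23 made up 7.23% to 8.30% in MDSC and 3.89% to 4.23% in TAM. Within TAM, the genotypes overlapped in the shares of H2-K1 and of H2-T23, and not in that of H2-D1 (53.27% to 53.5% in Shp2f/f and 53.0% to 53.17% in Shp2f/fLysMcre). All 10 genes together took 0.591% to 0.667% of the counts of an MDSC library, 0.898% to 0.934% of a Shp2f/f TAM library and 1.005% to 1.065% of a Shp2f/fLysMcre TAM library.

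Further genes of the pathway were taken as lists. Of 13 tested chains outside the 10 genes, 9 were called higher in Shp2f/fLysMcre TAM and 1 lower (median log2 fold change 0.28), against 23.9% and 26.3% of all tested genes. The largest rises were in Hfe, a regulator of iron uptake, from 51.3 ± 0.848 to 87.3 ± 3.26 CPM (SD, n = 3 each; log2 fold change 0.77, SE 0.041, edgeR adjusted p = 1.08e-07), and in Fcgrt, the neonatal Fc receptor, from 98.4 ± 0.620 to 163 ± 14.2 CPM (0.73, SE 0.056, edgeR adjusted p = 1.31e-06). Neither presents peptides, although both pair with B2m. The single fall was H2-M2, with a mean under 1 CPM in both groups. In MDSC, edgeR called 0 of 12 tested chains (median 0.31), 5 had an unadjusted p under 0.05 and DESeq2 called 2.

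Of 10 peptide loading partners, 4 were called lower and 1 higher in TAM (median -0.08), so that 5 of 10 were called, as were 50.2% of all tested genes. Calr, the chaperone calreticulin, fell from 1103 ± 14.7 to 996 ± 28.5 CPM (SD, n = 3 each; -0.15, SE 0.034, edgeR adjusted p = 0.00375), and Sec61b, a subunit of the translocon, fell by 0.20 (SE 0.042, edgeR adjusted p = 0.00218). Erap1, the aminopeptidase that trims peptides in the endoplasmic reticulum, was the single rise (0.12, SE 0.037, edgeR adjusted p = 0.0179). Of the 8 other proteasome genes, 4 fell and none rose, with 26.3% of all tested genes called lower and 50.2% called. Psme3, a nuclear proteasome activator, fell most (-0.26, SE 0.039, edgeR adjusted p = 0.000207). Of 8 genes listed as cytosolic peptidases, 2 were higher and 3 lower, near the shares over all genes (23.9% and 26.3%). Npepps (0.36, SE 0.037) rose, as did Lnpep (0.26, SE 0.062), a membrane-bound aminopeptidase of endosomes and not of the cytosol, and Thop1, which destroys peptides in the cytosol, fell by 0.63 (SE 0.063, edgeR adjusted p = 9.56e-06), with Lap3 at -0.27 (SE 0.049).

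Of 14 factors that act at class I promoters, 5 were called higher and 4 lower in TAM (median 0.00095), against 23.9% and 26.3% of all tested genes. Irf8 rose from 102 ± 2.89 to 165 ± 5.77 CPM (SD, n = 3 each; 0.70, SE 0.041, edgeR adjusted p = 2.13e-07), Irf2 by 0.35 (SE 0.035) and Irf1 from 85.8, 83.6 and 85.4 to 105, 103 and 98.5 CPM (0.27, SE 0.038, edgeR adjusted p = 0.000137). Nfya, a subunit of the factor that binds CCAAT, was lower (-0.31, SE 0.034, edgeR adjusted p = 1.93e-05), as was Nfkb1 (-0.16, SE 0.041). The subunits of the RFX complex (Rfx5, Rfxank and Rfxap) were not called.

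Genes of interferon signaling and response were called in 1 direction alone in TAM. Of 14 signaling genes, 12 were called higher and none lower (median 0.23), and of 24 response genes 20 were higher and none lower (median 0.28), against 23.9% of all genes higher. With total counts, 8 signaling genes were called higher, and 15 response genes higher and 1 lower. Stat2 (0.35, SE 0.050), the receptor chain Ifngr1 (0.34, SE 0.039), Ifit2 (0.58, SE 0.036) and the GTPase Iigp1 (0.60, SE 0.058) rose most among their lists. The chemokines Cxcl9 (-0.07, SE 0.048) and Cxcl10 (0.04, SE 0.042), common readouts of interferon-γ, were among the 4 response genes that were not called.

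In MDSC, 9 of 24 interferon response genes were called higher and none lower (median 0.50), against 3.76% of all genes called higher. Without either Shp2f/f replicate, 0 of them was called by edgeR, Cxcl9, Cxcl10 and Usp18 included, and without Shp2f/fLysMcre replicate 1 or 2 the numbers were 12 higher and 1 lower, and 18 higher. Cxcl9 rose from 1.02 ± 0.103 to 6.18 ± 0.993 CPM (SD, n = 2 each; 2.60, SE 0.25, edgeR adjusted p = 0.0182) and Cxcl10 from 3.91 ± 0.477 to 13.2 ± 2.74 CPM (1.76, SE 0.22, edgeR adjusted p = 0.0208). Of the signaling genes only Usp18, a brake on type I interferon signaling, was called in MDSC (0.69, SE 0.11, edgeR adjusted p = 0.0335). Irf1 (131 and 141 against 153 and 210.0 CPM) did not overlap and was not called (edgeR adjusted p = 0.293). By the interaction test, 2 of the 24 response genes had a larger effect in TAM and 11 a smaller one, against 12.2% and 12.7% of all tested genes. No gene of the loading, proteasome, peptidase, promoter factor or receptor lists was called in MDSC by edgeR, while 4, 0, 1, 2 and 2 of them, in that order, had an unadjusted p under 0.05 and DESeq2 called 2 loading partners and 0 of the others.

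**Figure D5:**
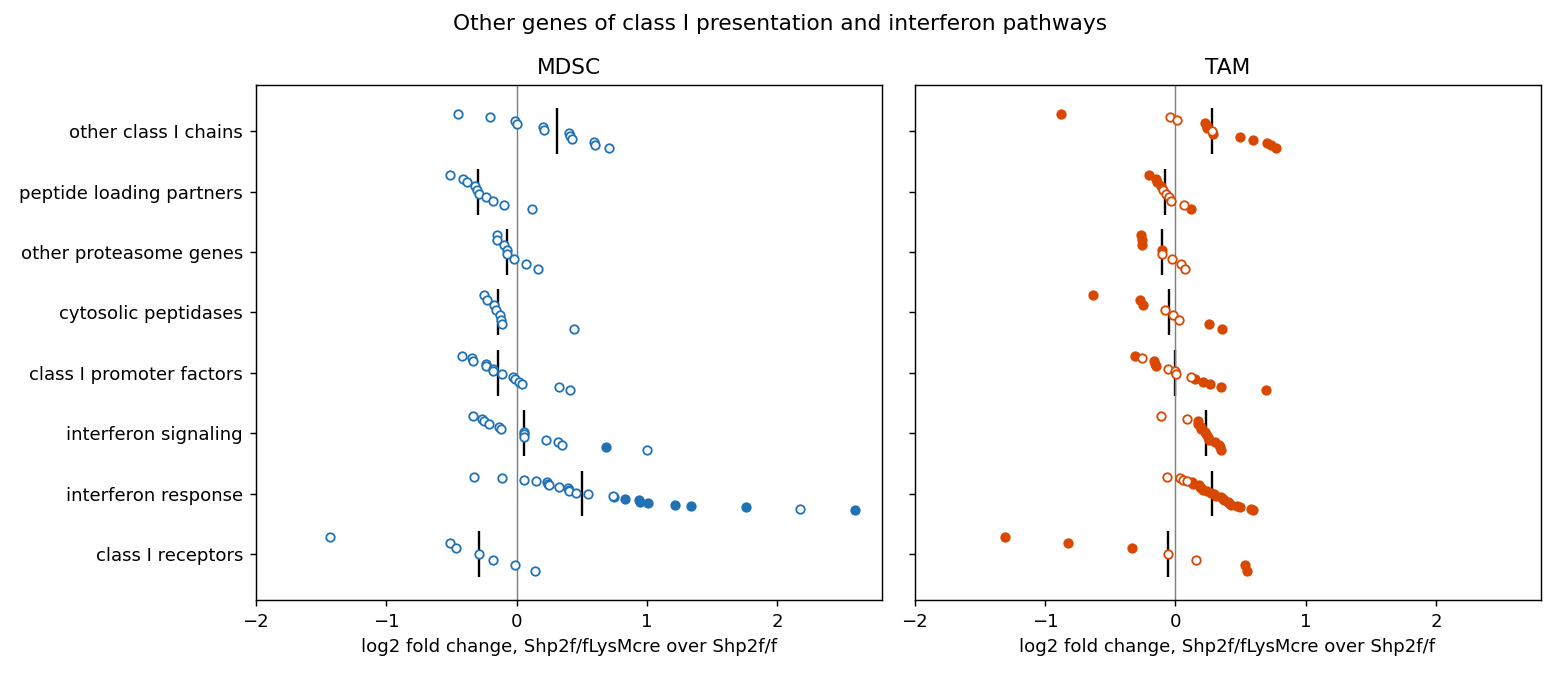
Log2 fold change of Shp2f/fLysMcre over Shp2f/f for each tested gene of 8 lists, in MDSC and in TAM, with called genes filled and a bar at each list's median. In TAM, the interferon lists (medians 0.23 and 0.28) and other class I chains (0.28) lie to the right of 0 and loading partners (-0.08) to the left; in MDSC the called genes are all in the interferon lists.

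Of 7 receptors listed for class I molecules and their relatives, 2 were higher and 3 lower in TAM, against 23.9% and 26.3% of all tested genes. Pirb, an inhibitory receptor for class I molecules, rose (0.53, SE 0.038, edgeR adjusted p = 7.39e-07), as did Lilrb4a (0.55, SE 0.12), an inhibitory receptor of the same family that is known for other ligands. Klrk1, an activating receptor of lymphocytes, was at 11.3 ± 0.925 against 6.39 ± 0.0716 CPM (-0.83, SE 0.080), and the activating receptor Pira2 fell by 0.33 (SE 0.041).

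The genes whose profile over the 10 libraries came nearest to each class I gene were listed by the root mean square difference of log2 CPM after centering, among 10063 genes. B2m came nearest to Rab5c (0.0443), Ifi204 (0.0608) and Gpat3 (0.0656). For H2-K1 they were Phf11b (0.0817), Evi5l (0.0836) and Naa80 (0.0861), and for H2-D1 Slc25a1 (0.0525), the nonclassical chain H2-T22 (0.0558) and Pkm (0.0564). H2-T22 shares 52.0% of its 42-base stretches with other transcripts. H2-T23 was nearest to Retreg2 (0.0601), Pip4k2c (0.0606) and Mafg (0.0641). Tap1 was nearest to Lrrcc1 (0.0363), Tmem248 (0.0385) and Ankrd27 (0.0403), Tap2 to Stk11 (0.0523), Cyhr1 (0.0528) and Abhd10 (0.0590), and Tapbp to Tmbim6 (0.0360), Ubap1 (0.0372) and Jmjd6 (0.0424). For Nlrc5 they were Tbk1 (0.0519), Mink1 (0.0529) and Rsrc2 (0.0532), for Psmb8 Ech1 (0.0247), Vps4a (0.0354) and the proteasome subunit Psma1 (0.0370), and for Psmb9 Apeh (0.0491), Cd2bp2 (0.0608) and Nudt19 (0.0609). Among the 10 genes, Tap1 and Tapbp were the closest pair (0.0578). H2-K1 and B2m, each the other's nearest, had the largest distance to a nearest class I gene (0.164), followed by Psmb9 (0.161 from Tap2). For each of the 10, other genes lay nearer than its nearest class I gene, from 7 for Tap1 to 838 for Psmb9. Profiles over 10 libraries share the split between cell types, and these distances carry no test.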

How the data were processed

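The authors isolated poly(A) RNA, made stranded libraries and sequenced 42-base read pairs. They trimmed reads with cutadapt 2.5, aligned them with STAR 2.7.3a to GRCm38 and counted them per Ensembl gene with featureCounts (Subread 1.6.2). They deposited raw counts, which were used here, and a table normalized by DESeq2, which was not. Groups and replicate numbers came from the sample titles. Symbols came from a GENCODE annotation of GRCm38 (99.67% of identifiers matched). Tests ran in edgeR 4.0.16 (R 4.3.3) on the raw counts: filterByExpr (minimum count 10), TMM scaling, quasi-likelihood F test, Benjamini-Hochberg adjustment over all tested genes and a call at adjusted p under 0.05. The fit was tested on simulated counts. DESeq2 1.42.0, other scalings, filters, a replicate block, a joint fit and leaving out each library were tried. From each list, the text names up to 2 called genes per direction with the largest change and a mean over 1 CPM, beside the class I genes, Ptpn11, Lyz2, Psmb10, Psmb5, Psmb6, Psmb7, Psme1, Psme2 and Irf1; likeness took the 3 nearest genes with a mean over 5 CPM. Xist, single cell markers, H2-M2, Rfx5, Rfxank, Rfxap and, in TAM, Cxcl9 and Cxcl10 were named after their values were seen. Values of 1 further gene are not reported here. The class I genes, lists and tests were chosen with earlier results of these data known.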

Additional observations from a re-analysis of the deposited data

Results flagged for a closer look

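The genotype effect of 2 of the 10 genes differed between the cell types by the interaction test, which called 24.9% of 16581 genes. The effect on B2m was larger in TAM than in MDSC by 0.45 on the log2 scale (SE 0.12, edgeR quasi-likelihood, BH-adjusted p = 0.0194), with all 3 Shp2f/fLysMcre TAM libraries above the controls and the Shp2f/fLysMcre MDSC libraries on both sides of theirs. The effect on H2-D1 was larger by 0.28 (SE 0.092, edgeR adjusted p = 0.0499), just inside the threshold. Both SE were below those in MDSC alone (0.14 for B2m and 0.12 for H2-D1), as the fit shared a spread between the cell types. B2m lost its call without any 1 of 5 libraries and H2-D1 without any 1 of 7. Groups of 2 or 3 libraries were too small to look for a library far from the others.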

How the results depend on the processing

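The number of class I genes called was 0 in MDSC under every alternative and 5 to 7 in TAM, where 7 were called. The 5, with total counts, were 4 of the 7 higher calls and Psmb8 as lower. In the cell type comparisons it was 6 to 8 in Shp2f/f and 3 to 8 in Shp2f/fLysMcre. Whether the replicate numbers pair libraries is not given by the labels. Deviations of same-numbered TAM libraries correlated at -0.133 to 0.0512 between genotypes. Those of MDSC gave 0.293 for both pairs, which is 1 value by construction, since deviations in a group of 2 mirror each other. Between same-numbered MDSC and TAM libraries, the values were 0.038 and 0.0511 in Shp2f/f and -0.0266 and -0.125 in Shp2f/fLysMcre. With the replicate number as a block, 0 genes were called in MDSC, 7 in TAM, 2 in the interaction, 8 between cell types in Shp2f/f and 3 in Shp2f/fLysMcre, where 6 were called without it (Nlrc5 0.52, adjusted p = 0.0510, Psmb9 -0.52, adjusted p = 0.0528, and Tap2 -0.28, adjusted p = 0.205, were not called by edgeR). The interaction count was 2, and became 1 with total counts, 1 with no filter, 0 at an adjusted p under 0.01 and 0 to 3 when 1 library was left out; the cause was not tested.

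No difference that changed sign was called after the change. In TAM, total counts moved Tap2 to -0.0741 and Psmb9 to -0.0007, and 1 fit of all libraries moved Psmb8 to 0.0192. In MDSC, without a filter H2-D1 was at -0.003 and Nlrc5 at -0.0137. For the interaction, total counts gave H2-T23 -0.079, Tap1 -0.11, Tapbp -0.0079 and Psmb8 -0.0666, and Psmb9 was at 0.0083 with DESeq2 size factors, 0.0082 in DESeq2's Wald test and 0.008 without a filter. Total counts moved Tap1 to -0.10 between cell types in Shp2f/fLysMcre. Leaving out 1 library at a time gave, in MDSC, -0.0405 to 0.0643 for H2-D1, -0.22 to 0.0648 for B2m, -0.0051 to 0.10 for Tapbp, -0.095 to 0.0709 for Nlrc5 and -0.20 to 0.0061 for Psmb8. In TAM it gave -0.0122 to 0.0504 for Tap2 and -0.0442 to 0.028 for Psmb8, in the interaction -0.13 to 0.0898 for Psmb9, and between cell types in Shp2f/f -0.0003 to 0.0898 for Tapbp. Ratios in MDSC moved from -0.08294 to 0.04933 for Psmb8/Psmb5, -0.19 to 0.07316 for Psmb10/Psmb7, -0.37 to 0.03811 for B2m/H2-K1 and -0.0079 to 0.18 for Tap2/Tap1. In TAM, no ratio changed sign.

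MDSC calls over all genes depended on single libraries: 633 genes were called, 1 without either Shp2f/f replicate, 4406 without Shp2f/fLysMcre replicate 1 and 2729 without replicate 2. Each of these fits left a group with a lone library, which was assumed to vary like the other group. Counts over all genes also moved by over 1.5 times in MDSC with the block (2674), 1 fit of all libraries (2666), DESeq2 (1256), no filter (130) and an adjusted p under 0.01 (3), in TAM with 1 fit of all libraries (4837, against 7257), and in the interaction (4132) at an adjusted p under 0.01 (2220) and without MDSC Shp2f/f replicate 1 (2519), replicate 2 (2446) or MDSC Shp2f/fLysMcre replicate 1 (7023).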
